A study of Mus musculus with 47 samples.

Results

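Regulators of mitochondrial biogenesis were followed as 7 of the 13500 genes of a whole-muscle expression table: *Ppargc1a* and *Ppargc1b*, *Esrra* and *Esrrg*, *Nrf1*, *Tfam*, and the mitochondrial carrier gene *Slc25a25*. They were chosen by name, for their known roles and with earlier results of these data known. All 7 passed the filter on low values that left 12000 genes for testing. Expression was measured by RNA sequencing in 47 libraries of tibialis anterior, a fast muscle of the shin, from female C57BL/6 mice fed ad libitum. Tissue was taken at zeitgeber time 12 (ZT12, lights off under the usual convention) or ZT0 (lights on).

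The libraries fell into 6 conditions, each sampled at both times with 4 libraries a group, except that WT ADX at ZT0 had 3. WT ADX+DEX mice, aged 11 to 14 weeks, were adrenalectomized wild types injected intraperitoneally with 5 mg/kg dexamethasone, a synthetic glucocorticoid, for 10 days at ZT12. WT ADX+ADR mice (13 to 14 weeks) were adrenalectomized and injected in the same way with 0.5 mg/kg adrenaline. WT ADX mice (12 to 17 weeks) had lost both adrenal glands and received no injection, and WT sham mice (9 to 12 weeks) kept theirs. RE-RE mice carried Bmal1(stopFL/stopFL) with Syt10-Cre(-/tg) and Hsa-Cre(-/tg), so that the clock gene *Bmal1* (*Arntl*) stays blocked except where Syt10-Cre, used for the brain, or Hsa-Cre, used for skeletal muscle, removes the stop. They were adrenalectomized (RE-RE ADX, 8 to 18 weeks) or sham-operated (RE-RE sham, 9 to 14 weeks).

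Several features of the design bear on every value. Injected animals are compared here with animals that were not injected, since no vehicle-injected group was analysed, and age was not balanced over the conditions. The labels give each library as a sample of its own without naming the animals, so the p-values measure the spread between these libraries. Estimated depth ranged from 16.3 to 35.6 M reads, with a median of 22.7 M. The 9 markers of fast fibres summed to between 62436 and 89807 FPKM (a level normalised to transcript length and sequencing depth) in all 47 libraries, and none of them was listed at 0. *Arntl* was between 0.985 and 11.4 FPKM in RE-RE ADX and between 0 and 15.2 FPKM in RE-RE sham libraries, 3 of which were listed at 0, against 0 to 18.8 FPKM in WT sham libraries, 1 of which was listed at 0. *Nnt*, a mitochondrial transhydrogenase gene that is disrupted in the C57BL/6J substrain and looked up after its values had been seen, was listed at 0 in 7 of 7 WT ADX and 2 of 8 WT sham libraries and in none of the other conditions. Whether a difference of substrain contributes to the contrasts with WT ADX cannot be told apart from adrenalectomy by the design. Finally, 7 libraries (WT sham ZT0 replicate 4, WT sham ZT12 replicate 8, RE-RE sham ZT0 replicate 2, RE-RE sham ZT12 replicate 6, RE-RE ADX ZT0 replicates 1 and 4 and RE-RE ADX ZT12 replicate 5) stood apart in their decimals. They shared at most 1 exact value with a library of their group, against 18 to 92 for each of the other 40, and results whose call, count or size they change are given with and without them.

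PGC-1α (*Ppargc1a*) and PGC-1β (*Ppargc1b*) are coactivators without a DNA-binding domain; they act by docking on transcription factors, chief among them the estrogen-related receptors ERRα (*Esrra*) and ERRγ (*Esrrg*), orphan nuclear receptors that bind the promoters of respiratory chain, citric acid cycle and fat oxidation genes. Nuclear respiratory factor 1 (*Nrf1*) drives nuclear genes of the respiratory chain and *Tfam*, whose protein packages mitochondrial DNA and starts its transcription. In muscle, *Ppargc1a* is known to be induced by exercise and β-adrenergic signalling through CREB, and *Slc25a25* encodes a calcium-regulated ATP-Mg/phosphate carrier of the inner mitochondrial membrane.

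The promoters of the 3 members on which most results turn are shown here so that the motifs in them can be read directly. From RefSeq (GRCm38.p6), 12 windows of 6 of the 7 members were used, each from 250 bases before to 50 bases after an annotated start. Ppargc1b was left out and its promoter was not searched. The windows shown are printed 5′ to 3′ on the strand of the gene, with every match in capitals. Slc25a25 is shown by the only one of its 3 windows that held a match, at chr2:32424017-32424316 on the minus strand. Ppargc1a lies at chr5:51567676-51567975 and Esrra at chr19:6921759-6922058, both on the minus strand.
Slc25a25 window 3: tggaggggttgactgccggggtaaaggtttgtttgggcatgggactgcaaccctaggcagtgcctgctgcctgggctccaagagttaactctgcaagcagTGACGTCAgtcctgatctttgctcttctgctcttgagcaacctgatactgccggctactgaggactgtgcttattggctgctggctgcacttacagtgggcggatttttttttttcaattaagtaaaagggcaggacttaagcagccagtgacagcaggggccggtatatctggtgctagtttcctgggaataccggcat
Ppargc1a: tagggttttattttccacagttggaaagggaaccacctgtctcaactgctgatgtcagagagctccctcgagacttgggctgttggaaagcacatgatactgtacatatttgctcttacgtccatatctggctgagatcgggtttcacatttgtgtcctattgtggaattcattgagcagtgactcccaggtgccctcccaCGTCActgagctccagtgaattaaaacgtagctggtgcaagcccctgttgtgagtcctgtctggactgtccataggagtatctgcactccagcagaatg
Esrra: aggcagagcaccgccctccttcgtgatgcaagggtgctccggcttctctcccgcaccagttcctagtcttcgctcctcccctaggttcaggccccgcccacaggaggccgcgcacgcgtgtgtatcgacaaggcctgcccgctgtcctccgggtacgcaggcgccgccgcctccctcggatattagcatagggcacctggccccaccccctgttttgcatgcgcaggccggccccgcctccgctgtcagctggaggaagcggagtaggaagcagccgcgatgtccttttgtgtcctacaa
On both strands 7 motifs were searched. The Slc25a25 window held the full cAMP response element TGACGTCA at position -150 from the start site, together with the 2 copies of its shorter form TGACG that overlap inside it. The Ppargc1a window held 1 copy of the shorter form, read on the opposite strand as CGTCA, at position -49. Of all 32851 windows of 300 bases, 1.79% held the full element and 20.8% the shorter form. The Esrra window held none of the motifs searched, which also included the E-box CACGTG (7.15% of all windows), the estrogen-related receptor element TNAAGGTCA (1.28%), the NRF1 element, searched as GCGCA, any 1 base and GCGC (4.6%), the glucocorticoid response element, searched as AGAACA, any 3 bases and TGTTCT (0.00913%), and TGTTCT alone (19%), which is part of the element before it. The letters TGTTCT were found once in the Tfam window and once in 1 of the 2 Nrf1 windows, and no motif was found in the 4 Esrrg windows. These matches are letters in a window; binding was not measured.

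On the length-normalised FPKM scale the 7 genes covered a wide range of levels. Esrra was the most abundant, with a mean of 44.2 FPKM over the 47 libraries, followed by Tfam (11.3 FPKM), Slc25a25 (8.7 FPKM), Ppargc1a (6.24 FPKM), Esrrg (5.02 FPKM), Ppargc1b (2.44 FPKM) and Nrf1 (1.3 FPKM). They also differed in how far their group means spread. The highest group mean of Slc25a25 was 22.9 times its lowest, whereas this ratio lay between 1.81 and 2.26 for Ppargc1a, Esrra, Esrrg and Ppargc1b and was 1.44 for Nrf1 and 1.25 for Tfam. Within a group, Slc25a25 was also the most variable (SD 0.79 on the log2 scale), against 0.08 for Tfam and 0.12 to 0.21 for the other 5.

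When the 12 groups were put in order of their means, most neighbours overlapped in their library values. The order comes from the same values, and how often other genes have neighbours without overlap was not counted. Ppargc1b, Nrf1 and Tfam had no pair of neighbouring groups without overlap among 11 pairs. Ppargc1a had 2 such steps. They lay between RE-RE sham at ZT12 and WT ADX at ZT0, and between WT ADX at ZT12 and RE-RE ADX at ZT0. The 4 adrenalectomized groups without injections had the lowest means, although single libraries crossed both steps. WT ADX ZT12 replicate 7 (5.42 FPKM) lay above RE-RE sham ZT12 replicate 8 (5.37 FPKM). RE-RE ADX ZT12 replicate 8 (5.15 FPKM) lay above WT ADX ZT12 replicate 5 (4.82 FPKM). Esrra had 1 step, between WT sham and WT ADX at ZT12, and both WT ADX groups had lower means than the other 10. Their libraries were not wholly apart: WT sham ZT0 replicate 1 (36.1 FPKM) lay below WT ADX ZT12 replicate 4 (36.3 FPKM). Esrrg had 1 step, which set WT sham at ZT0 above the rest, and Slc25a25 had 1 step, which set WT ADX+ADR at ZT12 above the rest.

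**Figure D1:**
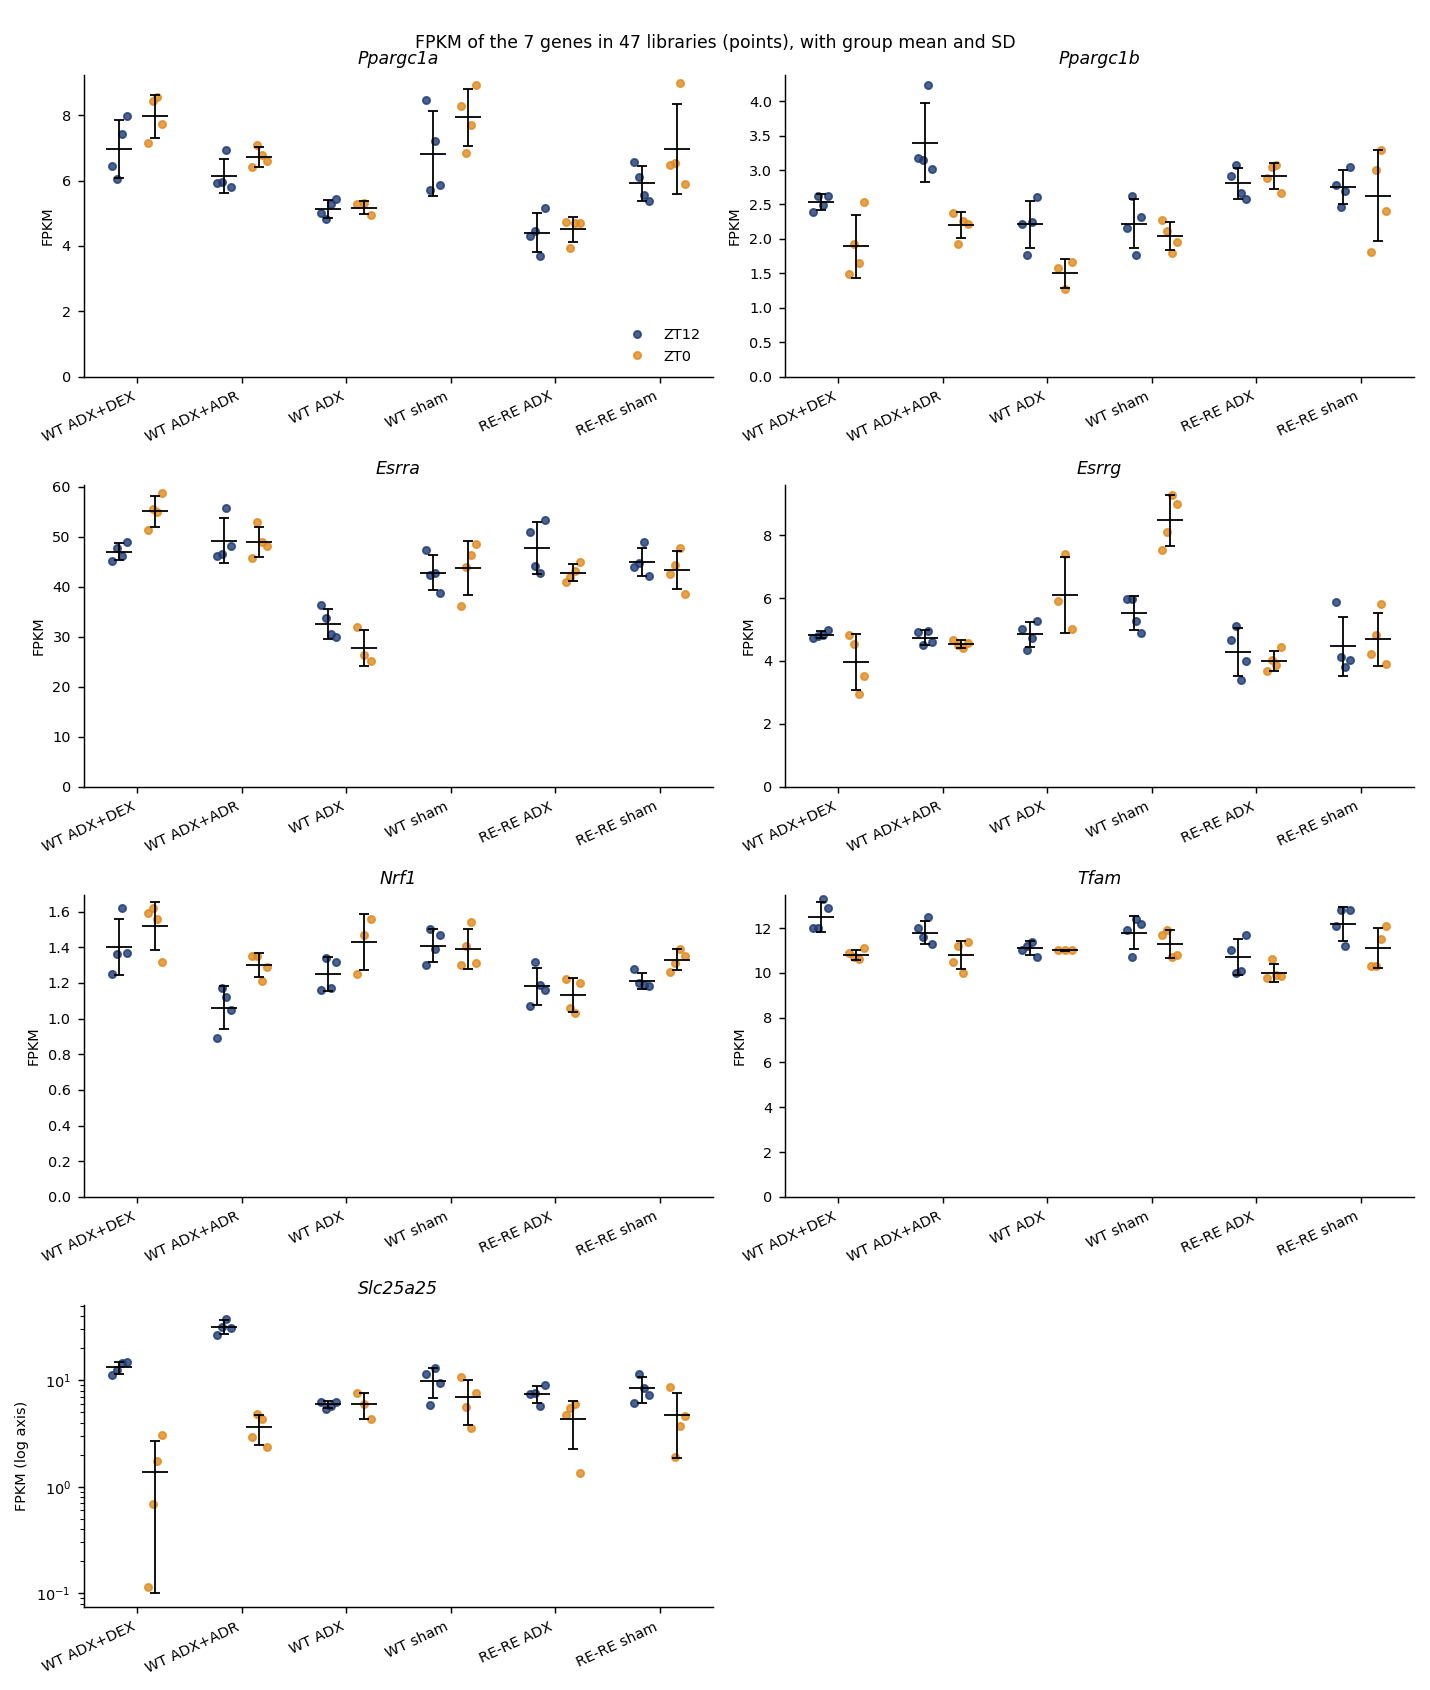
FPKM (y axis, logarithmic for Slc25a25) of the 7 genes in each of the 47 libraries (points), by condition (x axis) and time (colour), with the group mean and SD. Esrra is lowest in the WT ADX groups (means of 32.6 and 27.8 FPKM at ZT12 and ZT0), Esrrg is highest in WT sham muscle at ZT0 (8.48 FPKM) and Slc25a25 is highest in adrenaline-injected mice at ZT12 (31.9 FPKM).

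The first comparison asked what removal of the adrenal glands did to these genes in wild-type muscle. In WT ADX against WT sham muscle, the coactivator Ppargc1a and the receptor Esrra were lower at both times, and Esrrg and Ppargc1b were also lower at ZT0. At ZT0, 4 of the 7 genes fell and none rose, where 32.0% of all tested genes were called in either direction (limma, adjusted p under 0.05). At ZT12, 2 of the 7 fell and none rose, where 26.9% of all genes were called. In whole muscle, fewer cells of a type and less RNA per cell cannot be told apart.

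Ppargc1a at ZT0 had 5.28, 5.3 and 4.94 FPKM in WT ADX libraries, against 8.28, 6.83, 7.69 and 8.91 FPKM in WT sham libraries. All 3 ADX libraries were below all 4 sham libraries, and the log2 difference was -0.61 ± 0.12 (SE; adjusted p = 0.000234). At ZT12 Ppargc1a had 5.01, 4.82, 5.28 and 5.42 FPKM in WT ADX libraries, against 8.48, 5.72, 7.22 and 5.85 FPKM in WT sham libraries. The groups again did not overlap, although 2 sham libraries lay just above the ADX range, and the difference was -0.39 ± 0.11 (adjusted p = 0.00926). That call was lost without WT sham ZT12 replicate 5, the highest library (-0.28, adjusted p = 0.0768), with age as a covariate (-0.25, adjusted p = 0.214) and with only the groups compared in the fit (adjusted p = 0.0536).

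Ppargc1b, the second coactivator, had 1.57, 1.27 and 1.67 FPKM in WT ADX libraries at ZT0, against 2.27, 2.12, 1.8 and 1.95 FPKM in WT sham libraries. Its difference of -0.44 ± 0.16 passed the test (adjusted p = 0.0317) with no overlap between the groups, and it was lost without WT ADX ZT0 replicate 2 (-0.32, adjusted p = 0.185) or WT sham ZT0 replicate 1 (-0.38, adjusted p = 0.0921) or 2 (-0.42, adjusted p = 0.0622). It was also lost with age as a covariate (adjusted p = 0.128), with only the groups compared (adjusted p = 0.0599) and without the 7 libraries that stood apart (adjusted p = 0.0644). At ZT12 the Ppargc1b groups averaged 2.21 ± 0.344 FPKM (SD, n = 4) in WT ADX and 2.22 ± 0.357 FPKM (n = 4) in WT sham muscle.

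Esrra, the most abundant of the receptors, showed the largest difference of the 7 relative to its error at ZT0. At ZT0 it had 31.9, 26.3 and 25.1 FPKM in WT ADX libraries, against 36.1, 43.9, 46.4 and 48.5 FPKM in WT sham libraries. Every ADX library was below every sham library, with a difference of -0.65 ± 0.09 (adjusted p = 1.24e-06). At ZT12 it had 36.3, 33.8, 30.5 and 29.9 FPKM in WT ADX libraries, against 47.3, 42.3, 42.7 and 38.8 FPKM in WT sham libraries, a difference of -0.39 ± 0.08 (adjusted p = 0.000698) without overlap. With age as a covariate this ZT12 difference was -0.24 (adjusted p = 0.0873). The 2 WT sham libraries at ZT12 with *Nnt* listed at 0 had 42.3 and 42.7 FPKM of Esrra, above all WT ADX libraries. They had 5.72 and 7.22 FPKM of Ppargc1a, where the highest WT ADX library had 5.42 FPKM. Their Ppargc1b was 2.62 and 1.77 FPKM, against 1.77 to 2.61 FPKM in WT ADX libraries at ZT12. Their Esrrg was 5.98 and 5.27 FPKM, against 4.36 to 5.27 FPKM. The cause of the *Nnt* zeros and the part of substrain were not tested.

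Esrrg, the receptor typical of oxidative fibres, had 5.92, 7.41 and 5.01 FPKM in WT ADX libraries at ZT0, against 7.53, 8.1, 9.29 and 8.99 FPKM in WT sham libraries. The lowest sham library was just above the highest ADX library, and the difference was -0.48 ± 0.15 (adjusted p = 0.0103). It was lost without WT ADX ZT0 replicate 3 (-0.35, adjusted p = 0.114), with age as a covariate (adjusted p = 0.0501) and with only the groups compared (adjusted p = 0.0571). Nrf1 and Tfam did not pass the test at either time, with Tfam differences of -0.09 at ZT12 and -0.03 at ZT0. Slc25a25 also did not pass, with differences of -0.69 at ZT12 and -0.13 at ZT0.

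Most of a list of genes on which these regulators are known to act were lower too. This list and the other gene lists below were chosen with earlier results of these data known, so their counts only describe these libraries. Of a list of 20 known PGC-1 and ERR target genes of muscle, 16 fell and none rose at ZT12 in WT ADX against WT sham muscle, and 18 fell and none rose at ZT0. Their median log2 difference was -0.28 at ZT12 and -0.41 at ZT0, where the median of all tested genes was -0.02 at both times, and 16.6% and 19.4% of all genes fell. The count at ZT12 was 9 with age as a covariate. Ckmt2, the mitochondrial creatine kinase of sarcomeric muscle, averaged 465 ± 44.9 FPKM (SD, n = 3) in WT ADX and 1202 ± 122 FPKM (n = 4) in WT sham muscle at ZT0, a difference of -1.37 ± 0.14 (adjusted p = 3.13e-09). Fndc5, which encodes the precursor of irisin, fell by 0.87 on the log2 scale and Ogdh, a citric acid cycle enzyme gene, by 0.46.

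Of 28 PGC-1 partners and modifiers, 7 fell and 1 rose at ZT12, a share near the 26.9% of all genes called, and 14 fell and none rose at ZT0, where 32.0% were called. The nuclear receptor Ppara, a regulator of fat oxidation that PGC-1α coactivates, was lower by -2.42 ± 0.24 at ZT0 (adjusted p = 1.75e-09), and Lpin1, a phosphatidate phosphatase that can act with PGC-1α and Ppara, by -1.18 ± 0.12. Of 14 genes tested for upkeep and transcription of mitochondrial DNA, 7 fell at ZT12 and 6 fell at ZT0 and none rose, among them the mitochondrial RNA polymerase gene Polrmt (-0.36 and -0.41) and the protease gene Lonp1 (-0.21 and -0.28). Of 14 other mitochondrial carriers tested, 6 fell at ZT12 and 8 fell at ZT0, among them the phosphate carrier Slc25a3 (-0.25 and -0.52). The 7 endothelial markers moved the other way: they summed to 169 to 181 FPKM in WT ADX and 116 to 124 FPKM in WT sham muscle at ZT12, and to 174 to 200 FPKM in WT ADX and 133 to 140 FPKM in WT sham muscle at ZT0, with none listed at 0. The 7 slow-fibre markers overlapped between the groups (32.1 to 61.3 FPKM in WT ADX and 37.2 to 76.5 FPKM in WT sham muscle at ZT12, 46.3 to 74.6 and 41 to 87.9 FPKM at ZT0), and of them Myl2 was listed at 0 in all 7 WT ADX and in 2 WT sham libraries. Macrophage markers summed to 17.4 to 35.5 FPKM in WT ADX and 11.8 to 15.4 FPKM in WT sham muscle at ZT0, and Schwann cell markers to 27.1 to 32.1 FPKM in WT ADX and 37.1 to 40 FPKM in WT sham muscle at ZT12, both without overlap. The part of these cell types in the differences was not tested.

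The same operation in RE-RE mice asks whether the response is alike when *Bmal1* is active only where the drivers restore it. Ppargc1a fell after adrenalectomy in RE-RE muscle at both times, and Esrra did not pass the test at either. At ZT12, 2 of the 7 genes fell and none rose, where 5.32% of all genes were called, and at ZT0, 1 fell and none rose, where 5.45% were called. Ppargc1a at ZT0 had 4.73, 3.94, 4.7 and 4.69 FPKM in RE-RE ADX libraries, against 6.49, 6.53, 8.98 and 5.89 FPKM in RE-RE sham libraries. The groups did not overlap, and the difference of -0.61 ± 0.11 passed the test (adjusted p = 0.00217), though not with only the groups compared in the fit (adjusted p = 0.0913).

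At ZT12 Ppargc1a had 4.31, 4.44, 3.69 and 5.15 FPKM in RE-RE ADX libraries, against 6.58, 6.12, 5.56 and 5.37 FPKM in RE-RE sham libraries, again without overlap. The difference was -0.43 ± 0.11 (adjusted p = 0.0226), and adjusted p was 0.155 without the 7 libraries that stood apart, 0.115 with age as a covariate and 0.0795 with only the groups compared. The call was also lost without RE-RE sham ZT12 replicate 5 (-0.38) or 6 (-0.41) or RE-RE ADX ZT12 replicate 5 (-0.42) or 7 (-0.35), with adjusted p between 0.0539 and 0.116. Esrra at ZT0 had 41, 42, 43.1 and 45 FPKM in RE-RE ADX libraries, against 42.6, 44.3, 47.7 and 38.5 FPKM in RE-RE sham libraries. The values were interleaved, with a difference of -0.01 (adjusted p = 0.959). At ZT12 Esrra had 50.9, 44.1, 42.7 and 53.4 FPKM in RE-RE ADX libraries, against 44, 44.8, 48.9 and 42.1 FPKM in RE-RE sham libraries, which overlapped (0.08, adjusted p = 0.621). Tfam at ZT12 had 11, 10, 10.1 and 11.7 FPKM in RE-RE ADX libraries, against 12.1, 12.8, 11.2 and 12.8 FPKM in RE-RE sham libraries, groups that overlapped (-0.19 ± 0.06, adjusted p = 0.0347). This call was lost without the 7 libraries (adjusted p = 0.182), with age as a covariate (adjusted p = 0.0897), with only the groups compared (adjusted p = 0.159) and without any single one of RE-RE sham ZT12 replicates 5, 6 and 8 and RE-RE ADX ZT12 replicates 5, 6 and 7 (-0.16 to -0.21, adjusted p between 0.0523 and 0.136). Fibroblast markers at ZT12 summed to 414 to 534 FPKM in RE-RE ADX and 303 to 335 FPKM in RE-RE sham libraries, and their part in the differences was not tested.

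The difference between the genotypes in this response was tested by a contrast added after the data had been seen. The adrenalectomy effect on Esrra was higher in RE-RE than in WT muscle by 0.64 ± 0.12 at ZT0 (adjusted p = 0.000698) and by 0.47 ± 0.12 at ZT12 (adjusted p = 0.0125), where 10.7% and 6.43% of all genes were called. Without the 7 libraries that stood apart, the ZT12 value was 0.49 with an adjusted p of 0.0574. The effect on Ppargc1a differed between the genotypes by 0.00 ± 0.17 at ZT0 (adjusted p = 0.995) and by -0.04 ± 0.16 at ZT12 (adjusted p = 0.917). Of the 20 target genes, none was called by limma in RE-RE ADX against RE-RE sham muscle at ZT12 (3 at an unadjusted p under 0.05), and 4 fell at ZT0: Etfdh, Vegfa, Acadm and Ogdh, by 0.40, 0.41, 0.30 and 0.16 on the log2 scale. None of these 4 calls was left without the 7 libraries, with only the groups compared, or without RE-RE ADX ZT0 replicate 2, and 2 were called without RE-RE sham ZT0 replicate 1 or 2. For the difference between the genotypes, 13 of the 20 were called at ZT0 and 8 at ZT12, all higher in RE-RE, against 7.38% and 4.82% of all genes in that direction; without the 7 libraries 4 and 3 were called, and without RE-RE ADX ZT12 replicate 8 the 8 became 5.

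**Figure D2:**
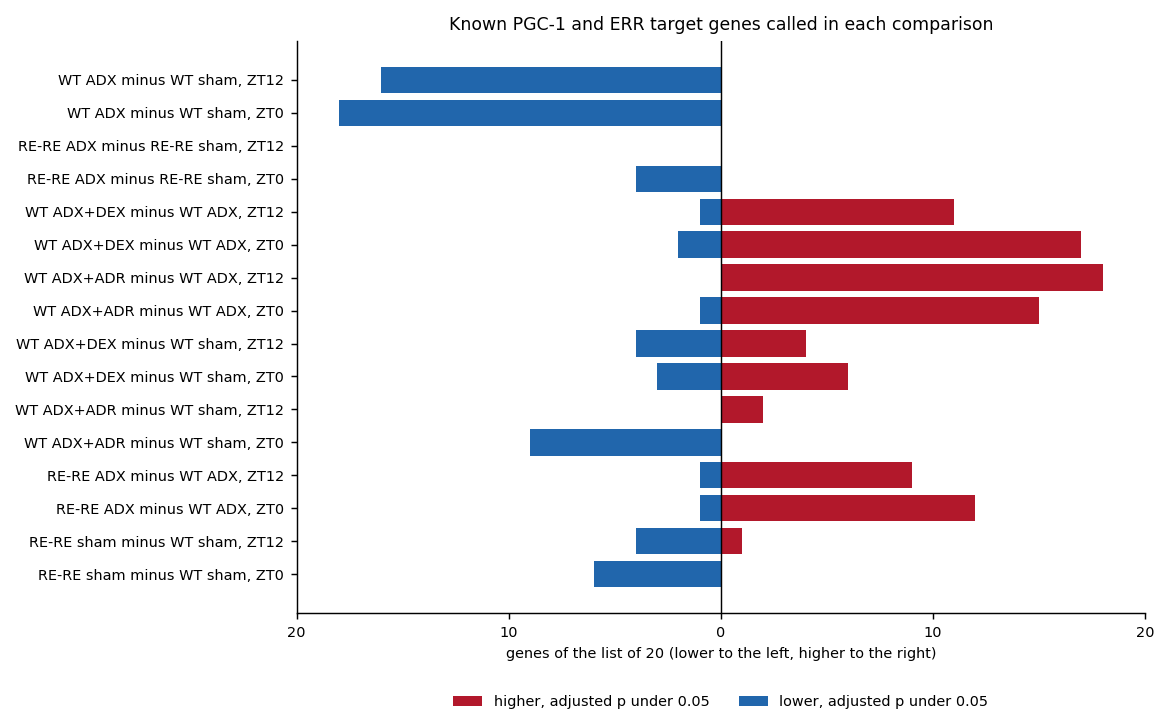
Number of the 20 known PGC-1 and ERR target genes with an adjusted p under 0.05 (x axis), lower to the left and higher to the right. The y axis holds the comparisons of conditions (first minus second), other than those of dexamethasone against adrenaline. The bars reach 18 lower genes in WT ADX against WT sham muscle at ZT0 and 18 higher genes in adrenaline-injected against WT ADX muscle at ZT12, and no target was called in RE-RE ADX against RE-RE sham muscle at ZT12.

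Hormone injections in adrenalectomized mice ask which of these differences return with a single adrenal hormone. Both dexamethasone and adrenaline were accompanied by a higher Esrra than in WT ADX muscle at both times. Ppargc1a was higher under dexamethasone at both times and under adrenaline at ZT0, and Ppargc1b was higher under adrenaline at both times. These comparisons share the WT ADX libraries with the one above, so that their directions are not independent of it. Against WT ADX, in WT ADX+DEX muscle 3 of the 7 genes rose and none fell at ZT12, where 66.3% of all genes were called, and 2 rose and 2 fell at ZT0, where 68.9% were called. With adrenaline 3 rose and 1 fell at both times, where 53.0% of all genes were called at ZT12 and 51.1% at ZT0. With such backgrounds, a call by itself sets a member little apart from other genes.

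Ppargc1a at ZT0 had 7.14, 8.42, 8.57 and 7.72 FPKM in WT ADX+DEX libraries, all above the WT ADX range of 4.94 to 5.3 FPKM. The difference was 0.62 ± 0.12 (adjusted p = 3.22e-05). At ZT12 it had 6.43, 6.04, 7.41 and 7.96 FPKM in WT ADX+DEX libraries, above the WT ADX range of 4.82 to 5.42 FPKM (0.43 ± 0.11, adjusted p = 0.00113). In WT ADX+ADR libraries Ppargc1a had 6.4, 7.09, 6.79 and 6.59 FPKM at ZT0, again above all WT ADX libraries (0.38 ± 0.12, adjusted p = 0.0105). At ZT12 the WT ADX+ADR libraries had 5.93, 5.94, 6.92 and 5.8 FPKM, and the difference of 0.26 did not pass the test (adjusted p = 0.0552) although the groups did not overlap.

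Ppargc1b rose under adrenaline at both times. At ZT12 it had 3.18, 3.14, 4.24 and 3.02 FPKM in WT ADX+ADR libraries, against 2.21, 1.77, 2.25 and 2.61 FPKM in WT ADX libraries. All 4 adrenaline libraries were above all 4 WT ADX libraries, with a difference of 0.62 ± 0.15 (adjusted p = 0.000636). At ZT0 the WT ADX+ADR libraries had 2.38, 1.93, 2.26 and 2.21 FPKM, above the 1.27 to 1.67 FPKM of WT ADX libraries (0.55 ± 0.16, adjusted p = 0.00417). Under dexamethasone the Ppargc1b differences of 0.21 at ZT12 and 0.31 at ZT0 did not pass the test.

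Esrra rose under both hormones at both times. At ZT0 it had 51.3, 55.5, 55 and 58.7 FPKM in WT ADX+DEX libraries, far above the 25.1 to 31.9 FPKM of WT ADX libraries (1.99-fold, log2 difference 1.00 ± 0.09, adjusted p = 5.15e-12). At ZT12 it had 45.1, 47.8, 46.1 and 49 FPKM in WT ADX+DEX libraries, above the 29.9 to 36.3 FPKM of WT ADX libraries (0.53 ± 0.08, adjusted p = 1.13e-06). Adrenaline gave 45.7, 53, 49 and 48.1 FPKM of Esrra at ZT0 in WT ADX+ADR libraries, all above the same WT ADX range (0.82 ± 0.09, adjusted p = 4.37e-09). At ZT12 the WT ADX+ADR libraries had 46.2, 46.5, 55.8 and 48.2 FPKM (0.59 ± 0.08, adjusted p = 4.57e-07).

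Esrrg went the other way at ZT0. It had 4.84, 4.55, 2.96 and 3.53 FPKM in WT ADX+DEX libraries, below the 5.01 to 7.41 FPKM of WT ADX libraries (-0.63 ± 0.15, adjusted p = 0.000249). Adrenaline gave 4.68, 4.5, 4.4 and 4.57 FPKM in WT ADX+ADR libraries at ZT0, also below them all (-0.41 ± 0.15, adjusted p = 0.018), and this call was lost without WT ADX ZT0 replicate 2 (-0.26, adjusted p = 0.179). At ZT12 Esrrg did not pass the test under either hormone, with differences of 0.00 under dexamethasone and -0.03 under adrenaline. Nrf1 at ZT12 had 0.891, 1.17, 1.12 and 1.05 FPKM in WT ADX+ADR libraries, against 1.16, 1.34, 1.17 and 1.32 FPKM in WT ADX libraries. The groups overlapped slightly (-0.25 ± 0.09, adjusted p = 0.0185), and the call was lost without WT ADX+ADR ZT12 replicate 5 (-0.17, adjusted p = 0.118) or WT ADX ZT12 replicate 5 (-0.21, adjusted p = 0.065) or 7 (-0.22, adjusted p = 0.0575) and with only the groups compared (adjusted p = 0.101).

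Tfam at ZT12 had 12, 12, 13.3 and 12.9 FPKM in WT ADX+DEX libraries, against 11, 11.2, 11.4 and 10.7 FPKM in WT ADX libraries. All dexamethasone libraries were higher, by a small difference of 0.18 ± 0.06 (adjusted p = 0.0053). Slc25a25 fell under dexamethasone at ZT0: it had 0.114, 0.686, 1.73 and 3.04 FPKM in WT ADX+DEX libraries, against 7.52, 6.01 and 4.33 FPKM in WT ADX libraries. The dexamethasone libraries were widely spread but all lay below WT ADX (0.142-fold, -2.82 ± 0.58, adjusted p = 5.79e-05), and the difference was -1.91 ± 0.47 without the lowest of them, replicate 1, and -3.45 ± 0.56 without the highest, replicate 4. At ZT12 it had 11.2, 12.5, 14.4 and 14.9 FPKM in WT ADX+DEX libraries, all above the WT ADX range of 5.38 to 6.3 FPKM, and the 2.22-fold difference did not pass (1.15 ± 0.54, adjusted p = 0.0588). It passed on the log2(FPKM + 1) scale (adjusted p = 0.0057), with age as a covariate (adjusted p = 0.047) and with only the groups compared in the fit (adjusted p = 3.18e-05). Under adrenaline at ZT12 Slc25a25 had 26.8, 31.8, 37.8 and 31.2 FPKM in WT ADX+ADR libraries, against 6.3, 5.38, 5.79 and 6.21 FPKM in WT ADX libraries. The difference was 5.35-fold (2.42 ± 0.54, adjusted p = 0.000305) without overlap. Immediate-early genes, which respond to handling and stimulation, were also higher under both hormones at ZT12. They summed to 351 to 512 FPKM in WT ADX+ADR, 74.5 to 126 FPKM in WT ADX+DEX and 6.26 to 63.5 FPKM in WT ADX libraries. Fos, which is among them, was listed at 0 in many WT ADX libraries. Their part was not tested.

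Most of the same target genes, a list chosen with earlier results of these data known, were higher under both hormones. Against WT ADX, 11 of the 20 rose and 1 fell in WT ADX+DEX muscle at ZT12, and 17 rose and 2 fell at ZT0, where 34.6% and 36.4% of all genes rose. With adrenaline 18 rose and none fell at ZT12, and 15 rose and 1 fell at ZT0, where 27.7% and 26.8% of all genes rose. The median over the 20 lay between 0.20 and 0.44 in these 4 comparisons, and the median of all tested genes was at most 0.04. At ZT0 under dexamethasone, Ckmt2 was higher by 1.58 and Mfn2, a mitochondrial fusion gene, by 0.65; at ZT12 under adrenaline the fat oxidation gene Acadm was higher by 0.58 and Ckmt2 by 0.88.

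Among the 28 partners, 16 rose and 6 fell under dexamethasone at ZT0, with Ppara higher by 3.46 and Lpin1 by 2.34 on the log2 scale, and 17 rose and 5 fell at ZT12, where 68.9% and 66.3% of all genes were called. Under adrenaline 10 rose and 6 fell at ZT0 and 7 rose and 5 fell at ZT12, shares near the 51.1% and 53.0% of all genes called. They included the muscle transcription factor Mef2c (0.63) and the acetyltransferase gene Kat2a (-0.52), whose product inhibits PGC-1α in liver and muscle cells. Of the 14 genes for mitochondrial DNA, 9 rose and 1 fell under either hormone at ZT12, whereas at ZT0 10 rose and none fell under dexamethasone and 10 rose and 1 fell under adrenaline; Polrmt was higher by 0.94 and the helicase gene Twnk by 0.75 under dexamethasone at ZT0. Of the 14 carriers, 10 rose and 3 fell under dexamethasone at ZT0, with Slc25a3 at 0.70, the aspartate-glutamate carrier Slc25a12 at 0.64 and the iron importer Slc25a37 at -0.69. Slow-fibre markers summed to between 66.2 and 139 FPKM in WT ADX+DEX and between 82.9 and 125 FPKM in WT ADX+ADR libraries, against 32.1 to 74.6 FPKM in WT ADX libraries. Endothelial markers summed to between 81.5 and 96.9 FPKM in WT ADX+DEX and between 93.2 and 140 FPKM in WT ADX+ADR libraries, against 169 to 200 FPKM in WT ADX libraries. Macrophage markers were lower without overlap under dexamethasone, at 4.12 to 7.54 FPKM in WT ADX+DEX and 12 to 17.4 FPKM in WT ADX muscle at ZT12, and at 8.38 to 16.3 FPKM in WT ADX+DEX and 17.4 to 35.5 FPKM in WT ADX muscle at ZT0. Fibroblast markers at ZT0 summed to 120 to 140 FPKM in WT ADX+DEX and 169 to 458 FPKM in WT ADX libraries. The part of these cell types in the differences was not tested.

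Against WT sham muscle, the injected mice show how the levels stand relative to an intact adrenal gland. At ZT12 none of the 7 genes was called by limma in WT ADX+DEX muscle (0 at an unadjusted p under 0.05), where 52.7% of all genes were, and at ZT0 Esrra was higher and Esrrg and Slc25a25 were lower, where 62.6% were called. In WT ADX+ADR muscle Slc25a25 and Ppargc1b were higher and Nrf1 lower at ZT12, where 39.0% of all genes were called, and Esrrg alone was lower at ZT0, where 43.1% were called. Ppargc1a did not pass in any of these 4 comparisons, with differences between -0.23 and 0.04.

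Esrrg at ZT0 was at 2.96 to 4.84 FPKM in WT ADX+DEX and at 4.4 to 4.68 FPKM in WT ADX+ADR libraries, against 7.53 to 9.29 FPKM in WT sham libraries. Both injected groups lay wholly below sham, by -1.12 ± 0.14 under dexamethasone (0.461-fold, adjusted p = 6.57e-09) and by -0.90 ± 0.14 under adrenaline (adjusted p = 2.32e-06). Esrra at ZT0 was higher in WT ADX+DEX than in WT sham muscle by 0.34 ± 0.08 (adjusted p = 0.000675), with all 4 dexamethasone libraries (51.3 to 58.7 FPKM) above the sham range of 36.1 to 48.5 FPKM. Slc25a25 at ZT0 was lower in WT ADX+DEX muscle than in WT sham libraries, which had 10.8, 5.6, 3.59 and 7.59 FPKM (-2.95 ± 0.54, adjusted p = 1.32e-05). Without WT ADX+DEX ZT0 replicate 1 this difference was -2.04 ± 0.44, and without replicate 4 it was -3.58 ± 0.52. Endothelial markers at ZT0 were also lower than in sham muscle, at 90.3 to 94.6 FPKM in WT ADX+DEX and 118 to 129 FPKM in WT ADX+ADR libraries, against 133 to 140 FPKM in WT sham libraries, and macrophage markers were higher under adrenaline (15.5 to 28.6 FPKM, against 11.8 to 15.4 FPKM in WT sham). Their part in these differences was not tested.

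At ZT12 the adrenaline libraries of Slc25a25 (26.8 to 37.8 FPKM) all lay above the WT sham libraries, which had 11.4, 5.91, 13 and 9.43 FPKM. The difference was 3.32-fold (1.73 ± 0.54, adjusted p = 0.0105). Immediate-early genes lay apart too, at 351 to 512 FPKM in WT ADX+ADR and 3.09 to 22.7 FPKM in WT sham libraries at ZT12. Fos, which is among them, was listed at 0 in many WT sham libraries, and their part was not tested. Ppargc1b at ZT12 was higher in WT ADX+ADR libraries (3.02 to 4.24 FPKM) than in WT sham libraries, which had 2.16, 2.62, 1.77 and 2.32 FPKM (0.61 ± 0.15, adjusted p = 0.00115). Nrf1 at ZT12 was lower in WT ADX+ADR libraries (0.891 to 1.17 FPKM) than in WT sham libraries, which had 1.3, 1.5, 1.39 and 1.47 FPKM (-0.42 ± 0.09, adjusted p = 0.000241). Neither pair of groups overlapped. Of the 20 targets, 4 rose and 4 fell in WT ADX+DEX against WT sham muscle at ZT12 and 6 rose and 3 fell at ZT0, where 52.7% and 62.6% of all genes were called, while in WT ADX+ADR muscle 2 rose at ZT12 and 9 fell at ZT0, where 39.0% and 43.1% were. The 4 that fell became 1 with age as a covariate. The 9 became 3 with age as a covariate and 5 without WT sham ZT0 replicate 4 or without all 7 libraries that stood apart. At ZT12 the slow-fibre markers were higher in WT ADX+ADR (84.1 to 117 FPKM) than in WT sham libraries (37.2 to 76.5 FPKM) and the fast-fibre markers lower (66493 to 74318 FPKM, against 78893 to 89807 FPKM in WT sham), both without overlap, and their part was not tested.

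The 2 hormones were also set against each other. In WT ADX+DEX against WT ADX+ADR muscle, Nrf1 was higher at both times, Ppargc1b was lower at ZT12 and Slc25a25 was lower at ZT0; 1 gene rose and 1 fell at either time, where 42.6% of all genes were called at ZT12 and 48.6% at ZT0. Nrf1 at ZT12 had 1.25, 1.36, 1.62 and 1.37 FPKM in WT ADX+DEX libraries, all above the WT ADX+ADR range of 0.891 to 1.17 FPKM (0.41 ± 0.09, adjusted p = 0.000276). At ZT0 Nrf1 had 1.59, 1.62, 1.56 and 1.32 FPKM in WT ADX+DEX libraries, against 1.35, 1.35, 1.21 and 1.29 FPKM in WT ADX+ADR libraries, with overlap (0.23 ± 0.09, adjusted p = 0.0323). That call was lost without any single one of WT ADX+DEX ZT0 replicates 1, 2 and 3 and WT ADX+ADR ZT0 replicates 3 and 4 (0.19 to 0.22, adjusted p between 0.0594 and 0.0996) and with only the groups compared (adjusted p = 0.0804). Ppargc1b at ZT12 had 2.39, 2.63, 2.49 and 2.62 FPKM in WT ADX+DEX libraries, all below the WT ADX+ADR range of 3.02 to 4.24 FPKM. The difference of -0.41 ± 0.15 (adjusted p = 0.023) was lost without WT ADX+ADR ZT12 replicate 7, the highest library (-0.30, adjusted p = 0.118), and without WT ADX+DEX ZT12 replicate 5 (-0.38, adjusted p = 0.0561).

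Slc25a25 at ZT0 was lower in WT ADX+DEX libraries (0.114 to 3.04 FPKM) than in WT ADX+ADR libraries, which had 2.96, 4.79, 4.33 and 2.38 FPKM. The groups overlapped, and the difference of -2.08 ± 0.54 (adjusted p = 0.00153) was -1.17 ± 0.44 (adjusted p = 0.0254) without WT ADX+DEX ZT0 replicate 1 and -2.71 ± 0.52 without replicate 4. It was lost with only the groups compared in the fit (adjusted p = 0.0874) and was -1.08 on the log2(FPKM + 1) scale. At ZT12 the WT ADX+DEX libraries (11.2 to 14.9 FPKM) all lay below the WT ADX+ADR libraries, and the difference of -1.27 ± 0.54 did not pass (adjusted p = 0.0557). It passed on the log2(FPKM + 1) scale (adjusted p = 0.0028), with age as a covariate or the genes with no value at 0 (adjusted p = 0.0498 in both) and with only the groups compared (adjusted p = 0.000188). Macrophage markers at ZT12 (4.12 to 7.54 FPKM in WT ADX+DEX and 10 to 18.3 FPKM in WT ADX+ADR libraries) and adipocyte markers at ZT0 (47.4 to 66.2 FPKM in WT ADX+DEX and 72.2 to 83.9 FPKM in WT ADX+ADR libraries) did not overlap between the hormones. Endothelial markers at ZT0 did not either (90.3 to 94.6 FPKM in WT ADX+DEX and 118 to 129 FPKM in WT ADX+ADR libraries). Fibroblast markers at ZT0 were lower and Schwann cell markers at ZT12 higher under dexamethasone, both without overlap. Immediate-early genes were lower under dexamethasone at both times, also without overlap. Junb, which is among them, was listed at 0 in all WT ADX+DEX libraries at ZT0. The part of these lists in the differences was not tested.

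**Figure D3:**
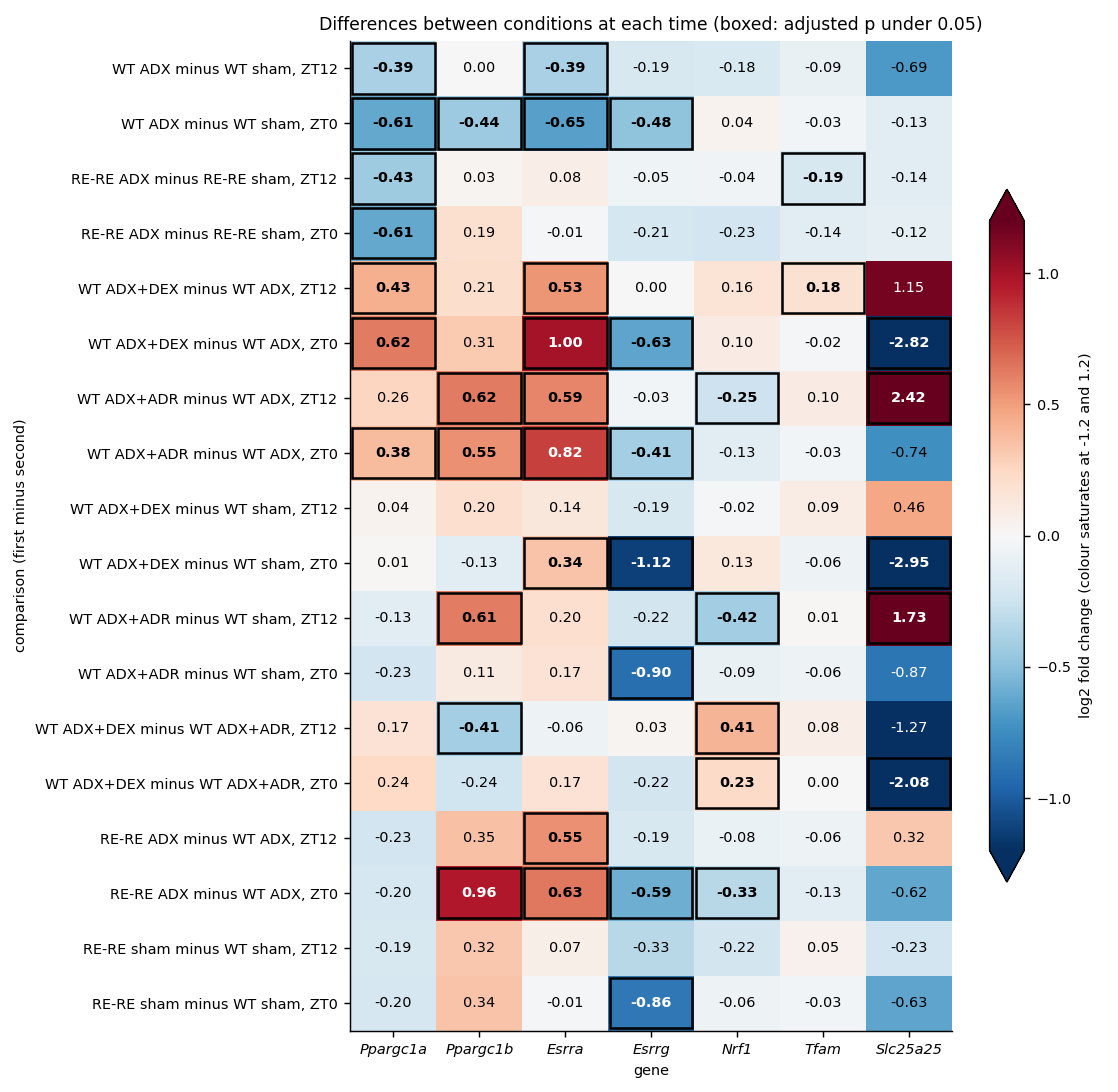
Log2 fold change (colour and number) of the 7 genes (x axis) in every comparison of conditions at a single time. The y axis gives the first condition minus the second, and boxes mark an adjusted p under 0.05. Esrra is negative in WT ADX against WT sham muscle (-0.39 at ZT12 and -0.65 at ZT0) and positive in both hormone groups against WT ADX (0.53 to 1.00), and Ppargc1a is boxed in both genotypes for adrenalectomy against sham.

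The question of time of day was asked within each condition. Slc25a25 was far higher at ZT12 than at ZT0 in both hormone-injected groups, Ppargc1b was moderately higher at ZT12 in the 3 adrenalectomized wild-type groups, and Esrrg was lower at ZT12 in WT sham muscle. In WT ADX+DEX muscle 3 of the 7 genes rose and 1 fell, where 27.8% of all genes were called. In WT ADX+ADR muscle 2 rose and 1 fell (12.7% of all genes called), in WT ADX muscle 1 rose (11.0%), and in WT sham muscle 1 fell (23.5%). By limma none was called in RE-RE ADX muscle (0.775% of all genes; 0 at an unadjusted p under 0.05) or in RE-RE sham muscle (10.8%; 1 at an unadjusted p under 0.05). In the injected groups the injections were given at ZT12, so that time of day and time since the last injection cannot be told apart.

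Slc25a25 in WT ADX+DEX muscle was at 11.2 to 14.9 FPKM at ZT12, against 0.114 to 3.04 FPKM at ZT0, a 16-fold difference (log2 difference 4.0 ± 0.54, adjusted p = 3.41e-07). Without ZT0 replicate 1, whose 0.114 FPKM corresponds to about 18 reads, it was 3.09 ± 0.44 (adjusted p = 1.04e-06), and without ZT0 replicate 4 it was 4.63 ± 0.52. In WT ADX+ADR muscle it was at 26.8 to 37.8 FPKM at ZT12, against 2.38 to 4.79 FPKM at ZT0, a 9.08-fold difference (3.18 ± 0.54, adjusted p = 5.74e-05). Neither pair of groups overlapped. In WT ADX muscle, by contrast, the groups averaged 5.92 ± 0.422 FPKM (SD, n = 4) at ZT12 and 5.95 ± 1.6 FPKM (n = 3) at ZT0 (0.03 ± 0.58, adjusted p = 0.99). In WT sham muscle the difference was 0.58 ± 0.54 (adjusted p = 0.475).

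In RE-RE muscle the Slc25a25 difference did not pass. It had 7.45, 7.57, 5.74 and 9.09 FPKM in RE-RE ADX libraries at ZT12, against 4.68, 5.48, 5.94 and 1.34 FPKM at ZT0 (0.96 ± 0.54, adjusted p = 0.509; 0.36 ± 0.68 without the 7 libraries that stood apart). In RE-RE sham libraries it had 6.13, 11.5, 8.5 and 7.31 FPKM at ZT12, against 8.64, 1.89, 3.71 and 4.65 FPKM at ZT0 (0.99 ± 0.54, adjusted p = 0.266). Both pairs overlapped. Immediate-early genes, a list of 8 that respond to handling and stimulation, moved beside Slc25a25 in the adrenaline groups: they summed to between 351 and 512 FPKM at ZT12, against 113 to 187 FPKM at ZT0, in WT ADX+ADR libraries. In WT ADX+DEX libraries they summed to between 74.5 and 126 FPKM at ZT12, against 77.5 to 93.1 FPKM at ZT0, which overlapped. Fos was listed at 0 in 5 of the 7 WT ADX and 5 of the 8 WT sham libraries, and Junb in all 4 WT ADX+DEX libraries at ZT0; the part of handling or stimulation in the result was not tested.

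The time effects themselves were then compared. That on Slc25a25 was higher in WT ADX+DEX than in WT ADX muscle by 3.97 ± 0.80 (adjusted p = 0.00053) and higher than in WT sham muscle by 3.42 ± 0.76 (adjusted p = 0.0014), where 17.2% and 18.9% of all genes were called. Without WT ADX+DEX ZT0 replicate 1 these values were 3.06 and 2.51, and without replicate 4 they were 4.60 and 4.05. Under adrenaline it was higher than in WT ADX by 3.16 ± 0.80 (adjusted p = 0.0158) and than in WT sham by 2.60 ± 0.76 (adjusted p = 0.0292), where 4.62% and 7.93% were called, and the last call was lost without the 7 libraries that stood apart (2.51, adjusted p = 0.0793) or without any single one of WT sham ZT0 replicates 1 and 4, WT sham ZT12 replicate 6 and WT ADX+ADR ZT0 replicate 4 (2.35 to 2.52, adjusted p between 0.0542 and 0.0677). Between dexamethasone and adrenaline the time effect differed by 0.82 ± 0.76 (adjusted p = 0.528; -0.09 without WT ADX+DEX ZT0 replicate 1), and none of the 7 genes passed there by limma (0 at an unadjusted p under 0.05), where 13.6% of all genes did. Likewise no member's time effect was called as different between WT ADX and WT sham (1 at an unadjusted p under 0.05; 1.54% of all genes called), between RE-RE ADX and RE-RE sham (0; 0.0667%) or between RE-RE sham and WT sham muscle (1; 0.342%).

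Ppargc1b in WT ADX+DEX muscle was at 2.39 to 2.63 FPKM at ZT12, against 1.49, 1.92, 1.65 and 2.53 FPKM at ZT0. The groups overlapped through 1 high ZT0 library (0.44 ± 0.15, adjusted p = 0.0199), and the call was lost without ZT0 replicate 1 (0.34, adjusted p = 0.104) or 3 (0.39, adjusted p = 0.0688) and with only the groups compared (adjusted p = 0.0882). In WT ADX+ADR muscle it was at 3.02 to 4.24 FPKM at ZT12, against 1.93 to 2.38 FPKM at ZT0, without overlap (0.62 ± 0.15, adjusted p = 0.00337). In WT ADX muscle it was at 1.77 to 2.61 FPKM at ZT12, against 1.27 to 1.67 FPKM at ZT0, also without overlap (0.55 ± 0.16, adjusted p = 0.0207). That call was lost without ZT0 replicate 2 (0.44, adjusted p = 0.155) or ZT12 replicate 7 (0.47, adjusted p = 0.0694) and with only the groups compared (adjusted p = 0.14). The Ppargc1b time effect was not called as different in any of the 8 pairs of conditions compared, and the WT sham libraries at ZT12 and ZT0 overlapped.

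Esrrg in WT sham muscle had 5.97, 5.98, 5.27 and 4.9 FPKM at ZT12, against 7.53, 8.1, 9.29 and 8.99 FPKM at ZT0. Every ZT12 library was below every ZT0 library (-0.62 ± 0.14, adjusted p = 0.000993). Fast-fibre markers in the same libraries summed to 78893 to 89807 FPKM at ZT12, against 64060 to 72506 FPKM at ZT0, and endothelial markers to 116 to 124 FPKM at ZT12, against 133 to 140 FPKM at ZT0, both without overlap; their part was not tested. The time effect on Esrrg was higher than that of WT sham in WT ADX+DEX by 0.93 ± 0.19 (adjusted p = 0.000582) and in WT ADX+ADR by 0.68 ± 0.19 (adjusted p = 0.023); the second was 0.59 (adjusted p = 0.139) without the 7 libraries and 0.62 (adjusted p = 0.0566) without WT sham ZT12 replicate 8. In WT ADX+DEX muscle Esrra fell at ZT12 relative to ZT0, with 45.1 to 49 FPKM at ZT12, against 51.3 to 58.7 FPKM at ZT0 and no overlap (-0.23 ± 0.08, adjusted p = 0.0388). That call was lost without any single one of ZT0 replicates 2, 3 and 4 and ZT12 replicates 5, 6 and 7 (-0.20 to -0.24, adjusted p between 0.0569 and 0.117), and adjusted p was 0.0504 without the 7 libraries, which enter only the shared estimate of spread. The time effect on Esrra was lower in WT ADX+DEX than in WT ADX muscle by -0.47 ± 0.12 (adjusted p = 0.00813), and that on Esrrg was higher by 0.63 ± 0.20 (adjusted p = 0.0242). The Esrrg call was lost without WT ADX ZT0 replicate 2 (0.48, adjusted p = 0.111), WT ADX ZT12 replicate 5 (0.58, adjusted p = 0.0523) or WT ADX+DEX ZT0 replicate 3 (0.50, adjusted p = 0.0727) or 4 (0.59, adjusted p = 0.0516) and with only the groups compared (adjusted p = 0.0744).

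Tfam in WT ADX+DEX muscle was at 12 to 13.3 FPKM at ZT12, against 10.9, 10.7, 10.6 and 11.1 FPKM at ZT0, without overlap (0.21 ± 0.06, adjusted p = 0.00347). Nrf1 in WT ADX+ADR muscle was at 0.891 to 1.17 FPKM at ZT12, against 1.21 to 1.35 FPKM at ZT0 (-0.30 ± 0.09, adjusted p = 0.0172), and the call was lost without ZT12 replicate 5 (-0.22, adjusted p = 0.09) or ZT0 replicate 2 (-0.28, adjusted p = 0.0506) and with only the groups compared (adjusted p = 0.116). Ppargc1a did not pass in any of the 6 conditions. Of the other carriers, Slc25a33, a mitochondrial pyrimidine nucleotide carrier, rose at ZT12 in all 6 conditions, by 1.42 ± 0.14 in WT ADX+DEX (adjusted p = 3.68e-10), 1.17 in WT ADX+ADR, 0.66 in WT ADX, 0.89 in WT sham, 0.59 in RE-RE ADX and 0.86 in RE-RE sham muscle. By time, at most 3 of the 20 target genes were called in either direction in any condition. The share of all genes called ran from 0.775% in RE-RE ADX to 27.8% in WT ADX+DEX muscle.

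**Figure D4:**
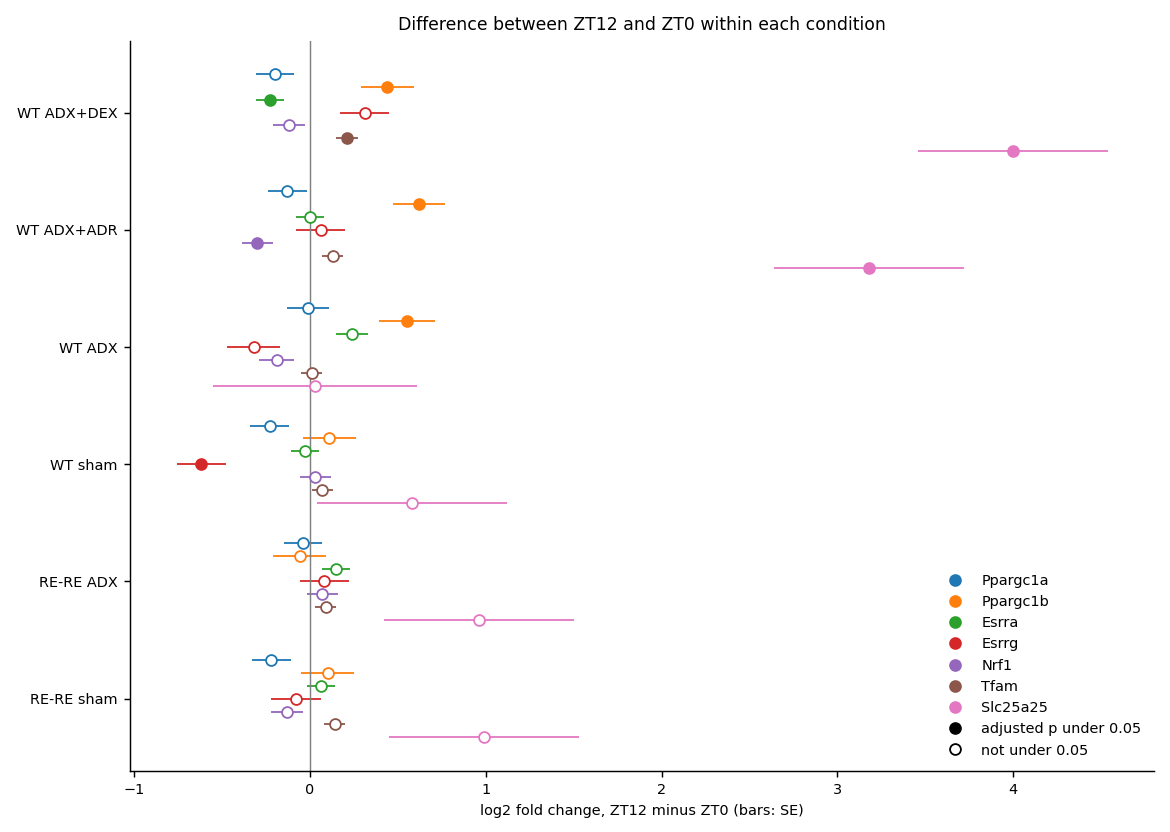
Log2 fold change of the 7 genes (colour) for ZT12 minus ZT0 (x axis; bars are SE) in each of the 6 conditions (y axis), with filled points where the adjusted p was under 0.05. Slc25a25 stands out at 4.0 in WT ADX+DEX and 3.18 in WT ADX+ADR muscle, and is at 0.03 in WT ADX muscle.

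RE-RE muscle was compared with WT muscle for the same operation. In sham-operated mice the receptor Esrrg was lower in RE-RE at ZT0, and after adrenalectomy Esrra was higher in RE-RE at both times and Ppargc1b at ZT0. At ZT12 none of the 7 was called by limma between RE-RE sham and WT sham muscle (3 at an unadjusted p under 0.05), where 19.3% of all genes were, and at ZT0 1 fell, where 24.1% were called. Esrrg at ZT0 had 4.23, 4.82, 5.82 and 3.91 FPKM in RE-RE sham libraries, all below the WT sham range of 7.53 to 9.29 FPKM (-0.86 ± 0.14, adjusted p = 1.51e-05). The Esrrg groups at ZT12 overlapped (-0.33, adjusted p = 0.0843). Endothelial markers at ZT0 were lower too, at 109 to 131 FPKM in RE-RE sham and 133 to 140 FPKM in WT sham libraries, and their part was not tested.

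Between RE-RE ADX and WT ADX muscle 1 gene rose and none fell at ZT12, where 38.0% of all genes were called, and 2 rose and 2 fell at ZT0, where 39.0% were called. Esrra in RE-RE ADX libraries (42.7 to 53.4 FPKM at ZT12 and 41 to 45 FPKM at ZT0) lay wholly above WT ADX libraries (29.9 to 36.3 FPKM and 25.1 to 31.9 FPKM). The differences were 0.55 ± 0.08 at ZT12 (adjusted p = 4.83e-06) and 0.63 ± 0.09 at ZT0 (adjusted p = 1.54e-06). Ppargc1b at ZT0 had 2.88, 3.05, 3.08 and 2.67 FPKM in RE-RE ADX libraries, against 1.27 to 1.67 FPKM in WT ADX libraries, a 1.95-fold difference (0.96 ± 0.16, adjusted p = 1.22e-05) without overlap. Esrrg at ZT0 had 3.68, 4.04, 3.88 and 4.44 FPKM in RE-RE ADX libraries, all below WT ADX (-0.59 ± 0.15, adjusted p = 0.00155). Nrf1 at ZT0 had 1.22, 1.06, 1.03 and 1.2 FPKM in RE-RE ADX libraries, all below the 1.25, 1.47 and 1.56 FPKM of WT ADX libraries (-0.33 ± 0.10, adjusted p = 0.00551), a call lost without WT ADX ZT0 replicate 3 (-0.27, adjusted p = 0.0526) and with only the groups compared (adjusted p = 0.0575).

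Of the 20 targets, 9 rose and 1 fell at ZT12 and 12 rose and 1 fell at ZT0 in RE-RE ADX against WT ADX muscle, where 19.7% and 20.7% of all genes rose. Ckmt2 was higher by 0.95 and Fndc5 by 0.66 at ZT0, and among the partners Ppara was higher by 2.83. In sham-operated mice 4 targets fell and 1 rose in RE-RE at ZT12 and 6 fell at ZT0. Of all genes, 19.3% and 24.1% were called in either direction there, shares not far from those of the list. The 4 and 6 that fell became 1 and 3 without the 7 libraries that stood apart. The 4 became 2 without WT sham ZT12 replicate 5, and the 6 became 3 without WT sham ZT0 replicate 4 or RE-RE sham ZT0 replicate 1 and 2 without RE-RE sham ZT0 replicate 4. With only the groups compared the 4 became 2 and the 6 became 1. Endothelial markers summed to between 102 and 138 FPKM in RE-RE ADX libraries, against 169 to 200 FPKM in WT ADX libraries, without overlap. Slow-fibre markers were higher without overlap, at 89.3 to 119 FPKM in RE-RE ADX and 32.1 to 74.6 FPKM in WT ADX libraries. Fibroblast markers were higher at either time, with 414 to 534 FPKM in RE-RE ADX and 85 to 203 FPKM in WT ADX muscle at ZT12, and 478 to 631 FPKM in RE-RE ADX and 169 to 458 FPKM in WT ADX muscle at ZT0. The part of these cell types in the differences was not tested.

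The patterns of the members over the 12 group means were also compared with each other and with the 10072 other tested genes that had no value at 0. These correlations describe the same libraries that gave the values above. Between members, the strongest relations were that of Nrf1 with Ppargc1b (r = -0.82, n = 12 groups), Slc25a25 with Tfam (0.61) and Nrf1 with Ppargc1a (0.60), and all others lay between -0.53 and 0.51. Esrra had the closest companions: Endog, a mitochondrial endonuclease gene (r = 0.98), Vegfb, a vascular endothelial growth factor gene (0.98), and the mitochondrial ribosomal protein gene Mrpl16 (0.97). Slc25a25 was most like Nr4a1, an immediate-early orphan nuclear receptor (0.95), Bhlhe40, a basic helix-loop-helix repressor (0.92), and Dpm1 (0.91).

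Nr4a1 averaged 245 ± 30.5 FPKM at ZT12 and 54.6 ± 16.3 FPKM at ZT0 in WT ADX+ADR muscle (SD, n = 4 each). In WT ADX+DEX muscle it averaged 93.3 ± 12.3 FPKM at ZT12 and 22.6 ± 8.72 FPKM at ZT0 (n = 4 each). Bhlhe40 averaged 74.7 FPKM at ZT12 and 31.2 FPKM at ZT0 under adrenaline, and 60.3 FPKM at ZT12 and 26.8 FPKM at ZT0 under dexamethasone. Both were picked for likeness to Slc25a25 over these group means, so their higher ZT12 means in the injected groups are no separate observation. The genes most like Ppargc1a were Ate1 (0.93), Mfsd4b1 (0.92) and Arfgef2 (0.91), those most like Ppargc1b were Acot6 (0.90), Lzts1 (0.90) and Tedc2 (0.88), and those most like Esrrg were Chpt1 (0.91), Shoc2 (0.90) and Fndc3a (0.89). Nrf1 was most like Taf3 (0.89), Arid1a (0.89) and Edn1 (0.87), and Tfam most like Cwc15 (0.93), Ttc33 (0.91) and Cipc (0.91).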

How the data were processed

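The members and the gene lists were chosen with earlier results of these data known. Values were used as the authors deposited them, on the log2 scale, as log2(FPKM + 0.01) of 13500 genes in 47 libraries; 0.01 was read from the lowest value, -6.64, which 10102 values hold and which is taken as 0. The tools named by the submitters' processing notes are HISAT2 2.1.0, featureCounts 1.6.2 and edgeR 3.30.0, with Trim Galore 0.5.0 and FastQC 0.11.8, and the GRCm38 build. Libraries were single-end reads of 60 bases, about 25 M each, per the labels' protocols. Ensembl IDs were matched to symbols for 13446 genes.

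Genes reaching 1 FPKM in at least 3 libraries (12000) were fitted with limma 3.58.1 (R 4.3.3; trend) on 12 group means with 35 residual degrees of freedom. Tests were two-sided, with Benjamini-Hochberg adjustment within a contrast over all tested genes, and calls were made at an adjusted p under 0.05. Folds are 2 to the power of the fitted log2 difference and can differ from ratios of mean FPKM where values are low. For Slc25a25 in WT ADX+DEX muscle the fold of ZT12 over ZT0 was 16, where the means were 13.2 and 1.39 FPKM. Its log2 difference was 4.00, and 3.09 without ZT0 replicate 1. FPKM levels, means, SDs, marker sums and motif matches were computed with Python 3.11.15. Depth was estimated from the smallest steps of 68 low genes; only 25 of 329 member values came within 0.05 of a whole read, so no count test was run. Member reads ran from 18 to 7280 for Slc25a25 and from 83 for Ppargc1b, the lowest of the others. The fit was tested on simulated data.

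All members were named; list genes were named only from among the 4 smallest adjusted p of their list in a contrast, as examples, and for each member the 3 genes with the highest correlation of group means. The other list genes are not reported here. Alternatives were a pseudocount of 1 FPKM, no filter, equal medians, age as a covariate, only the groups compared, a block on replicate number and leaving out each library. Without the 7 libraries that stood apart, genes with no value at 0, and the contrast of adrenalectomy effects between genotypes were additions made once the data were known.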

Additional observations from a re-analysis of the deposited data

Results flagged for a closer look

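Single libraries stood away from their group in 5 of the 77 sets of 4 libraries examined (11 groups for each of 7 genes), by a gap to the nearest library, relative to the group's range, above Dixon's critical value for 4 samples, where chance gives about 1 in 20. Replicate 7 of WT ADX+ADR at ZT12 was high for both coactivators, with 6.92 FPKM of Ppargc1a and 4.24 FPKM of Ppargc1b. Replicate 2 of RE-RE ADX at ZT0 was low for Ppargc1a (3.94 FPKM) and high for Tfam (10.6 FPKM), and replicate 5 of RE-RE sham at ZT12 was high for Esrrg (5.87 FPKM).

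Of 70 tests of a difference between effects, 10 passed. For Slc25a25 the ZT12 minus ZT0 effect was higher in WT ADX+DEX than in WT ADX by 3.97 and than in WT sham by 3.42, and in WT ADX+ADR by 3.16 and 2.60. For Esrrg that effect was higher in WT ADX+DEX than in WT ADX by 0.63 and than in WT sham by 0.93, and in WT ADX+ADR than in WT sham by 0.68. For Esrra it differed between WT ADX+DEX and WT ADX by -0.47, and the adrenalectomy effect differed between RE-RE and WT by 0.64 at ZT0 and 0.47 at ZT12.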

How the results depend on the processing

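Of the 60 member changes called, none turned direction in any alternative and 34 passed in every one. All 60 passed with log2(FPKM + 1), with no filter, with equal medians and with the genes that had no value at 0; 54 passed with age as a covariate, 46 with only the groups compared in the fit and 53 without the 7 libraries that stood apart. Adrenalectomy against sham was the family that moved most: its 9 calls became 3 with age as a covariate, 3 with only the groups compared and 1 with the replicate block; the cause was not tested. The 2 calls of the contrast between genotypes became 1 without the 7 libraries, which also leaves fewer libraries. Leaving out 1 library at a time gave 7 to 10 calls for time (9 in all), 7 to 9 for adrenalectomy against sham (9), 14 to 17 for hormones against WT ADX (15), 7 to 8 for hormones against WT sham (7), 3 to 6 for dexamethasone against adrenaline (4), 5 to 8 for RE-RE against WT (6), 7 to 8 for differences of time effects (8) and 2 to 3 for the contrast between genotypes (2), and 17 of the 60 changes lost their call without some library. Replicate numbers showed no clear pairing of the samples. In 18 contrasts the 64 correlations of same-numbered deviations ran from -0.137 to 0.248 and no contrast had all above 0.1. With 3 or 4 libraries a group these correlations cannot exclude a pairing. With the replicate block, 25 of the 41 changes it could be fitted to passed, with 13 calls for hormones against WT ADX, 6 for hormones against WT sham, 5 for dexamethasone against adrenaline and 4 for RE-RE against WT; the target genes called lower in WT ADX against WT sham muscle were 1 at ZT12 and 0 at ZT0, those called higher in WT ADX+ADR against WT ADX muscle at ZT12 were 3, and those called higher in RE-RE ADX against WT ADX muscle were 4 at ZT12 and 2 at ZT0, and those called lower were 1 at ZT12 and 0 at ZT0 in RE-RE sham against WT sham muscle and 0 in RE-RE ADX against RE-RE sham muscle at ZT0. The calls for Ppargc1a in RE-RE ADX against RE-RE sham muscle at ZT0 (adjusted p = 0.19) and for Slc25a25 in WT ADX+DEX against WT ADX+ADR muscle at ZT0 (0.0929) were also lost with the block, and Slc25a25 in WT ADX+DEX against WT ADX muscle at ZT12 passed with it (0.00177). Slc25a25 in WT ADX+DEX muscle rested on low values at ZT0: its difference between ZT12 and ZT0 was 2.73 with log2(FPKM + 1) and 4.63 without ZT0 replicate 4. Depth limits Slc25a25 in WT ADX+DEX muscle at ZT0 most, where the lowest library holds about 18 reads. Equal medians shifted the median of all genes by at most 0.04 and moved 83 of 84 group levels by less than 1 SD.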
